A study of Mus musculus with 13 samples.

Results

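The genes described here are 33 genes of fatty acid uptake and oxidation, named in a list drawn up for this description and matched by symbol to the deposited table of read counts. The list was chosen with earlier results of these data known. The 33 are members of a table of 55536 genes, and all 33 passed the filter on low counts. The list falls into 6 steps: uptake (5 genes), activation and thioester hydrolysis (3), the carnitine shuttle and its malonyl-CoA control (6), beta-oxidation (15), uncoupling and pyruvate dehydrogenase control (2) and the lipid droplet (2). RNA was counted in nuclei of mouse ventricles, sorted for Pcm1, a centriolar satellite protein used to select cardiomyocyte nuclei. C57BL/6J mice, an inbred strain, were injected intraperitoneally on postnatal day 1 with adeno-associated virus of serotype 6, and ventricles were taken on postnatal day 56. Control virus (Con) had no insert. PGR virus (PGR) encoded human progesterone receptor, a steroid-activated transcription factor. There were 4 libraries of females given control virus (Con_F) and 3 of males (Con_M). PGR virus was given to the females of 3 further libraries (PGR_F, with replicate numbers 1, 2 and 4) and to the males of 3 (PGR_M). All animals, controls included, had received virus, so no group was uninjected. Each library pooled 3 to 6 whole ventricles, and no source used here gives the promoter that drove the insert. Whether the pools of 1 group were prepared separately is not stated either, so p-values measure only the spread between these libraries.

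The adult heart draws much of its energy from long-chain fatty acids. Lipoprotein lipase frees them from circulating triglyceride, membrane and binding proteins carry them into the cardiomyocyte, and acyl-CoA synthetases activate them. The carnitine shuttle moves the acyl chains into mitochondria, where each turn of beta-oxidation shortens them and passes electrons to the respiratory chain. Many of these genes are known targets of the nuclear receptors PPARα and PPARδ, which are activated by fatty acids, and of the estrogen-related receptors.

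Total counts were between 31.8 and 86.3 M per library, and the lowest count of any member was 15 (Acot1 in Con_F 1). Values are counts per M reads (CPM) after TMM scaling, a correction for library composition. Each gene was counted over its whole interval, introns included, so unspliced nuclear RNA can contribute. Nuclear RNA levels in a sorted pool do not tell fewer cells of a type from less RNA per cell. The 16 cardiomyocyte markers, all detected, summed to between 83130 and 102800 CPM in the 13 libraries. Pcm1 lay between 103 and 139 CPM. Counts of mouse Pgr were between 0 and 8 per library, and the human insert was not measured here. Con_F 4 had Y-linked counts at 1.01% of the male mean, against 0.0112% to 0.112% in the other female libraries.

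The fitted log2 fold change of PGR over control vector was above 0 for most of these genes in both sexes, but no member passed the test, and the libraries of the vectors overlapped for most members. Pdk4, a kinase that inhibits pyruvate dehydrogenase and so limits glucose oxidation, averaged 96.7 ± 79.5 CPM in Con_F (SD, n = 4) against 282 ± 199.9 in PGR_F (n = 3). In males it averaged 176 ± 112 in Con_M against 481 ± 109.6 in PGR_M (n = 3 each). Lower down the range stood Pnpla2, the lipase that opens the lipid droplet, at 21.5 ± 3.31 CPM in Con_F (n = 4) against 30.5 ± 8.85 in PGR_F (n = 3), and 22.2 ± 4.04 in Con_M against 31.9 ± 2.93 in PGR_M (n = 3 each). Echs1, a hydratase of the beta-oxidation spiral, had group means from 27.2 CPM in Con_F to 29.6 in PGR_F. Within Con_F alone Pdk4 spanned 23.2 to 205 CPM.

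**Figure D1:**
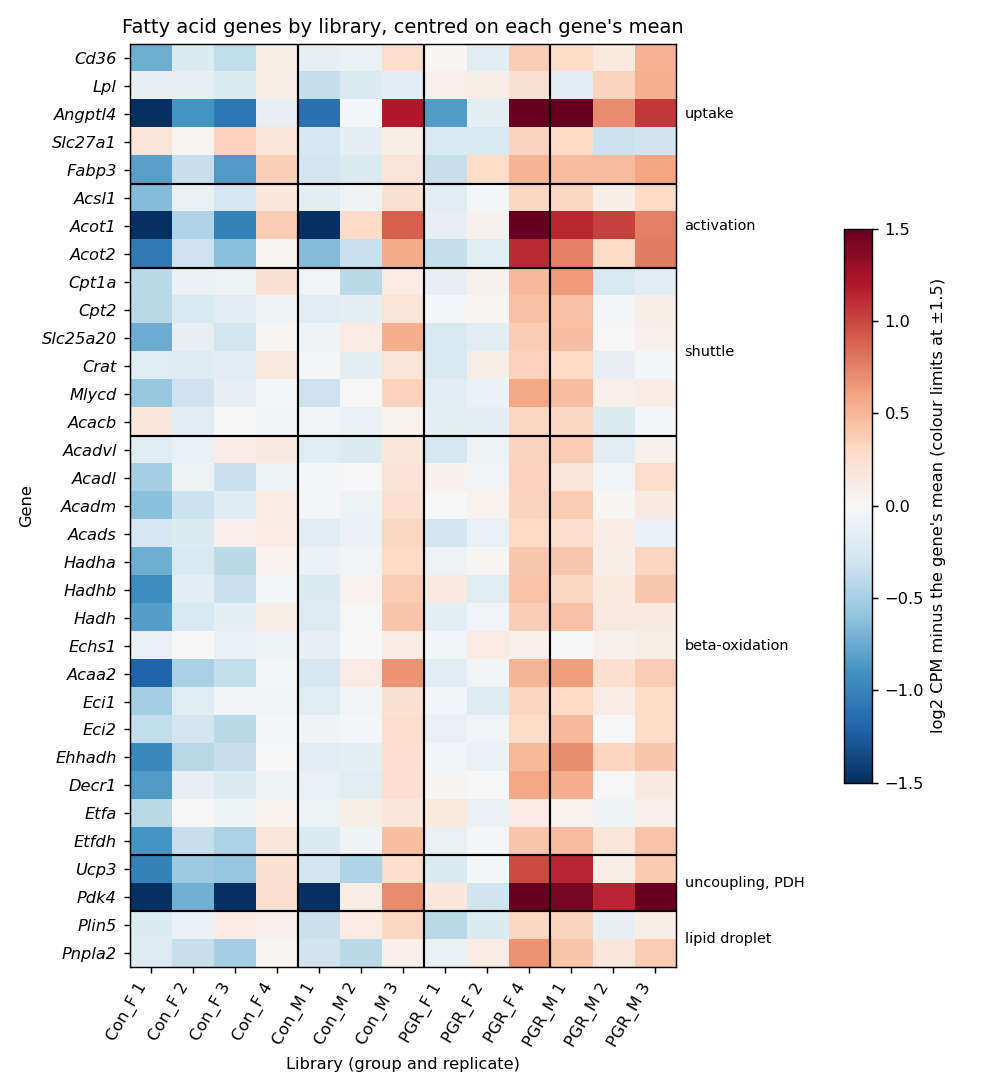
Each row is one of the 33 genes in 6 steps and each column one of 13 libraries. Colour gives log2 CPM minus the gene's mean over libraries, red for higher and blue for lower. Con_F 1 is the lowest library for 21 genes, and PGR_M 1 and PGR_F 4 are the highest for 12 and 11.

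The members varied together from library to library. Con_F 1 was the lowest of the 13 libraries for 21 of the 33 genes, and Con_F 3 for 3 more. PGR_M 1 was the highest for 12, PGR_F 4 for 11, and Con_M 3 and PGR_M 3 for 4 each. PGR_F 4 was among the 4 highest libraries for 33 of 33 genes, PGR_M 1 for 30, Con_M 3 for 27 and PGR_M 3 for 23. Con_M 1 lay above a gene's own mean for 0 of 33. A control library thus stood among the highest for most members, and 1 control library stood far below the other controls.

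How far the genes spread differed from gene to gene, within steps as well as between them. The highest library was 28.5 times the lowest for Acot1, 25.8 times for Pdk4 and 20.99 times for Angptl4. It was 4.55 times for Acot2, 4.48 for Ucp3, 3.66 for Acaa2 and 3.16 for Ehhadh. The range exceeded 2-fold for 19 members and 3-fold for 7. Echs1 was the flattest at 1.18 times, then Acacb at 1.43 and Crat at 1.48. The median SD within groups was 0.27 on the log2 scale over the 33 members. Over all 16125 genes tested it was 0.19, and over the 10845 other genes at least as abundant as the lowest member it was 0.14.

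Per kb of gene interval, Fabp3 was the highest member with a mean of 37.0 CPM per kb, followed by Slc27a1 (25.3), Lpl (23.2), Pdk4 (19.01) and Acadvl (15.7). Acot1 was the lowest with 0.332 CPM per kb, and Eci2 and Acot2 had 1.01 and 1.02. On this scale the 3 highest members were uptake genes, and the lowest was a thioesterase. The interval includes introns, so the order depends on gene length. By median CPM the highest members were Cd36 (988) and Acacb (904), whose intervals are 107 and 104 kb long.

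The effect of the PGR vector was read first, within each sex. In females 31 of 33 members had a log2 fold change above 0, with a median of 0.37, while the median over all 16125 genes was 0.0033 and 50.7% of them lay above 0. With edgeR's quasi-likelihood test, 0 of 33 members had an adjusted p under 0.05. The count over all genes was also 0 (0% called, with 1765 genes at an unadjusted p under 0.05), and DESeq2 and limma-voom called 81 and 0 genes, with 0 members among them. At an unadjusted p under 0.05, 9 of 33 members were higher with the PGR vector, against 5.8% of all genes. These were Acadl, Pnpla2, Cpt2, Ehhadh, Hadha, Acadm, Decr1, Eci2 and Hadhb. In 3 members, Acadl, Cpt2 and Decr1, every PGR_F library lay above every Con_F library, which held for 4.17% of all genes.

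PGR_F 4 carried much of that difference. This library also had the lowest summed cardiomyocyte markers of the 13 (83130 CPM) and the lowest Xist, the transcript of the inactive X, of the female libraries (740.0 CPM against 1020.0 to 1200.0), and the part of this in the values was not tested. Without it, 28 of 33 members were above 0 and the median was 0.18. At an unadjusted p under 0.05, 0 members were then higher and 1 was lower. Leaving out Con_F 1, the lowest library, gave a median of 0.28 and 3 members at that level. With both left out the median was 0.12, with 23 of 33 above 0, and 0 members higher and 1 lower at that level. Leaving out Con_F 4, the library with the Y-linked counts, raised the count to 20 members and the median to 0.46. Without PGR_F 1 or PGR_F 2 the count was 15 or 14. With libraries left out, here and in the comparisons below, the share of all genes at that level was not counted. Over all genes, those past the adjusted threshold also rose without Con_F 4, from 0 to 20.

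In males the log2 fold change was above 0 for 31 of 33 members, with a median of 0.21. Over all genes the median was 0.00067 and 50.1% lay above 0. By edgeR 0 members and 0 genes passed (0% called, with 1206 genes at an unadjusted p under 0.05). DESeq2 and limma-voom called 29 and 0 genes, none of them members. Lpl, Pnpla2 and Ehhadh were higher at an unadjusted p under 0.05, 3 of 33 against 3.53% of all genes. All PGR_M libraries lay above all Con_M libraries for 4 members, Fabp3, Pdk4, Pnpla2 and Ehhadh, and for 7.2% of all genes.

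Con_M 3 and PGR_M 1 moved the male values in opposite directions. Without Con_M 3, 33 of 33 members were above 0 and the median was 0.35, with 6 members higher at an unadjusted p under 0.05. Without PGR_M 1, 25 were above 0 and the median was 0.08, with 2 members at that level. Without Con_M 1 or Con_M 2 that count was 1.

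Averaged over the sexes, 32 of 33 members lay above 0 with a median of 0.29, and 51% of all genes lay above 0. The adjusted p was under 0.05 for 0 members and for 1 gene of 16125 (0.0062% called). At an unadjusted p under 0.05, 17 of 33 members were higher with the PGR vector against 7.37% of all genes. Leaving out 1 library was enough to lower that count, to 4 without PGR_F 4, 6 without Con_M 1, 8 without Con_M 2 or PGR_M 1, and 9 without PGR_M 3. That count was 14 without Con_F 1, 2 or 3. It rose to 23 without Con_M 3, 21 without Con_F 4, 20 without PGR_F 1, 19 without PGR_F 2 and 18 without PGR_M 2. With PGR_F 4 and PGR_M 1 both left out, the count was 3, with 1 member lower, and the median 0.14 with 25 of 33 above 0. With Con_F 1 and Con_M 3 both left out, the count was 23 and the median 0.33. The share of all genes at that level was not counted in these fits. Over all genes, those past the adjusted threshold rose from 1 to 338 without Con_F 4. All 6 PGR libraries lay above all 7 control libraries for 0 members, and for 0.26% of all genes. DESeq2 called 334 genes in this comparison, against 1 by edgeR. Of the 334, 3 were members, Pnpla2 (adjusted p = 0.0087), Lpl (0.0227) and Ehhadh (0.0262). limma-voom called 0 members.

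**Figure D2:**
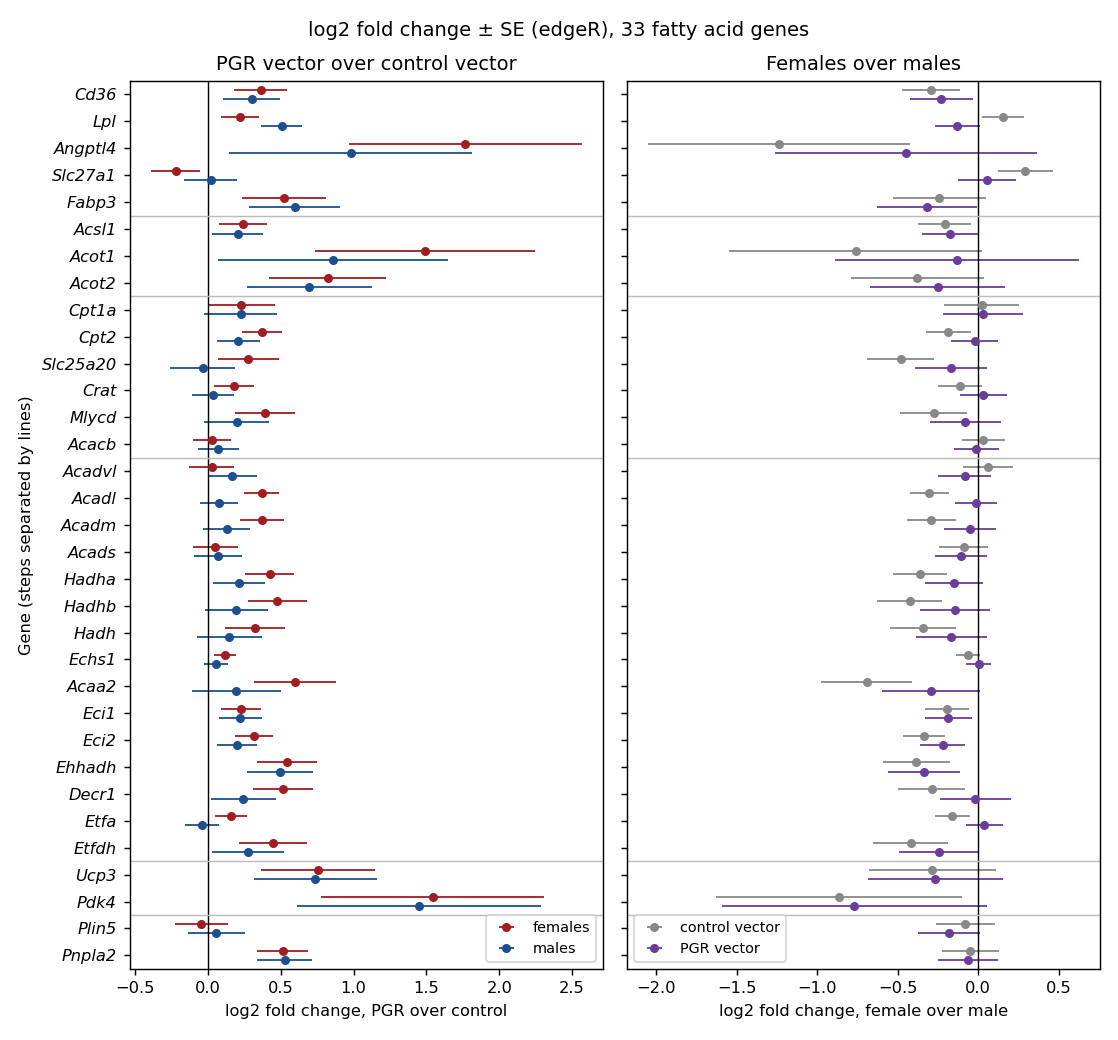
The left panel gives the log2 fold change of PGR over control vector for each of the 33 genes, in females and males, and the right panel that of females over males under each vector. Points are edgeR estimates and bars ± 1 SE, with steps separated by lines. On the left 31 genes lie above 0 in each sex, and on the right 28 lie below 0 under each vector.

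Uptake was described by 5 genes. Lpl encodes lipoprotein lipase, which releases fatty acids from lipoprotein triglyceride. It had 564, 566, 534 and 655 CPM in Con_F 1 to 4, 480.3, 533 and 547 in Con_M 1 to 3, 648, 655 and 723 in PGR_F 1, 2 and 4, and 547, 777 and 894 in PGR_M 1 to 3. PGR_M 2 and 3 were the highest of all libraries, while PGR_M 1 was level with the highest control male. The log2 fold change was 0.51 (SE 0.14, adjusted p = 0.568) in males and 0.22 (SE 0.13) in females, and 0.36 (SE 0.10, adjusted p = 0.122) averaged over the sexes. The difference between the sexes was -0.29 (SE 0.19, adjusted p = 0.9999). In this gene PGR_M 1, high for most members, stood low, and without it the averaged value was 0.45.

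Angptl4 encodes a secreted inhibitor of lipoprotein lipase and is itself a known PPAR target. It had 1.52, 4.57, 4.02 and 7.800 CPM in Con_F 1 to 4, 3.91, 8.404 and 19.6 in Con_M 1 to 3, 4.74, 7.67 and 32.01 in PGR_F 1, 2 and 4, and 29.8, 13.9 and 17.7 in PGR_M 1 to 3. PGR_F 4 and PGR_M 1 stood highest, and Con_M 3 was above 4 of the 6 PGR libraries, so the groups overlapped in both sexes. edgeR put the log2 fold change at 1.77 (SE 0.80, adjusted p = 0.464) in females, 0.98 (SE 0.83) in males and 1.37 (SE 0.58) averaged. Without PGR_F 4 the female value was 0.50.

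Cd36, the fatty acid translocase, and Fabp3, the heart fatty acid-binding protein of the cytosol, followed the general order. Cd36 had 587, 844, 756 and 1045 CPM in Con_F 1 to 4, 891, 905 and 1169 in Con_M 1 to 3, 988, 866 and 1259.9 in PGR_F 1, 2 and 4, and 1178, 1074 and 1396 in PGR_M 1 to 3. The groups overlapped in both sexes, with a log2 fold change of 0.36 (SE 0.18) in females and 0.30 (SE 0.19) in males. Fabp3 had 137, 189, 133 and 308 CPM in Con_F 1 to 4, 197, 208 and 276 in Con_M 1 to 3, 189, 292 and 344 in PGR_F 1, 2 and 4, and 331, 336 and 362 in PGR_M 1 to 3. In males the groups did not overlap, and the log2 fold change was 0.60 (SE 0.31, adjusted p = 0.706). In females they did, with 0.52 (SE 0.29).

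Slc27a1, a fatty acid transport protein with acyl-CoA synthetase activity, was the member furthest below 0. It had 529, 469, 586 and 524 CPM in Con_F 1 to 4, 386, 417 and 487 in Con_M 1 to 3, 391, 388 and 578 in PGR_F 1, 2 and 4, and 564, 367 and 375 in PGR_M 1 to 3. PGR_F 4 and PGR_M 1 were high here too, but the other 4 PGR libraries were at the bottom of the range with Con_M 1. On the log2 scale the fold change was -0.22 (SE 0.17) in females and 0.02 (SE 0.18) in males, and it was the one member below 0 in the average, at -0.10 (SE 0.12).

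Activation held Acsl1, the main long-chain acyl-CoA synthetase of the heart, and a pair of thioesterases that split acyl-CoA back into fatty acid and CoA, Acot1 in the cytosol and Acot2 in mitochondria. Acsl1 had 327, 481, 432 and 573 CPM in Con_F 1 to 4, 469, 498 and 605 in Con_M 1 to 3, 459, 510.2 and 638 in PGR_F 1, 2 and 4, and 639, 546 and 628 in PGR_M 1 to 3. Its lowest library was Con_F 1, its highest PGR_M 1, and the groups overlapped in both sexes. PGR over control gave a log2 fold change of 0.24 (SE 0.16) in females and 0.21 (SE 0.18) in males.

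Acot1 and Acot2 lie side by side on chromosome 12 (GRCm38, 84009490 to 84018371 and 83987861 to 83993873, plus strand). Their coding sequences were 95.55% identical over 1236 aligned bases. The longest stretch they share without a mismatch, bases 887 to 1159 of the Acot1 coding sequence and 1010 to 1282 of that of Acot2, is shown because a read inside it fits both genes equally.
Acot1 and Acot2 shared coding stretch: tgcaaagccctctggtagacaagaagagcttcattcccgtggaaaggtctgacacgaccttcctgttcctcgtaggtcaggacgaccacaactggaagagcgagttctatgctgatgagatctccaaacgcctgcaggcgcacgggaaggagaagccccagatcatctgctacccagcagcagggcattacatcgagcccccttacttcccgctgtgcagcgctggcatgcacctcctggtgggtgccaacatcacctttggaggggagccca
No source used here says how such reads were assigned, so counts of these genes are uncertain to that extent.

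Acot2 had 2.65, 4.46, 3.59 and 5.66 CPM in Con_F 1 to 4, 3.54, 4.42 and 8.12 in Con_M 1 to 3, 4.34, 4.895 and 12.1 in PGR_F 1, 2 and 4, and 9.35, 6.76 and 9.53 in PGR_M 1 to 3. The highest values were in PGR_F 4, PGR_M 3 and PGR_M 1, and Con_M 3 lay above PGR_M 2. The estimated log2 fold change was 0.82 (SE 0.40, adjusted p = 0.487) in females, 0.70 (SE 0.43, adjusted p = 0.757) in males and 0.76 (SE 0.30, adjusted p = 0.279) averaged. Without PGR_F 4 the female value was 0.18. Acot1 had 0.2599, 1.61, 1.100 and 2.88 CPM in Con_F 1 to 4, 0.722, 2.73 and 4.14 in Con_M 1 to 3, 2.03, 2.33 and 7.402 in PGR_F 1, 2 and 4, and 4.87, 4.496 and 3.74 in PGR_M 1 to 3. It spread more widely than any other member, and the value in Con_F 1 rests on 15 counts. The log2 fold change was 1.49 (SE 0.75) in females and 0.86 (SE 0.79) in males, and the difference between the sexes was 0.63 (SE 1.09, adjusted p = 0.9999).

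**Figure D3:**
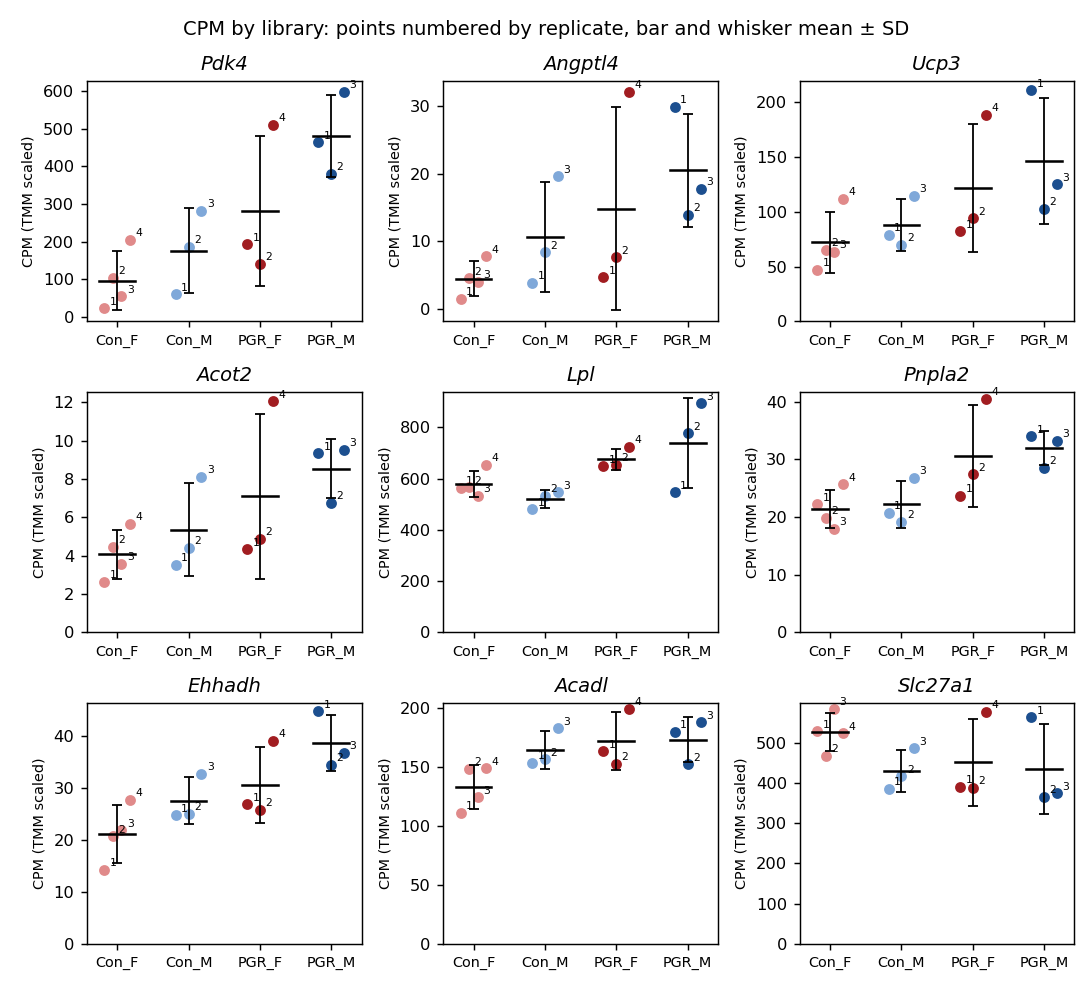
CPM of 9 of the genes in each library, with points numbered by replicate, horizontal bars for group means and whiskers for SD. The vertical axes are linear, and each gene has its own scale. In Pdk4, Pnpla2 and Ehhadh the PGR_M points lie above all Con_M points, while the PGR_F means of Pdk4, Angptl4, Ucp3 and Acot2 are set largely by replicate 4.

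The carnitine shuttle had the lowest median log2 fold change of the 6 steps in the averaged vector comparison, 0.17. Cpt1a, the outer-membrane carnitine palmitoyltransferase of liver that is also found in heart, had 169, 210.2, 211 and 262 CPM in Con_F 1 to 4, 218, 168 and 244 in Con_M 1 to 3, 204, 233 and 313 in PGR_F 1, 2 and 4, and 349, 189 and 198 in PGR_M 1 to 3. PGR_M 1 and PGR_F 4 were the highest, and PGR_M 2 and 3 were below Con_M 1. edgeR put the log2 fold change at 0.23 (SE 0.23) in females and 0.22 (SE 0.25) in males. Cpt1b, the muscle isoform, was listed at 0 counts in all 13 libraries and was not tested. How reads fitting several genes were assigned is not stated, so this does not show that Cpt1b RNA was absent. Cpt2, which remakes acyl-CoA on the matrix side, had 29.3, 33.3, 35.1 and 37.8 CPM in Con_F 1 to 4, 34.98, 35.7 and 44.9 in Con_M 1 to 3, 38.6, 39.8 and 52.9 in PGR_F 1, 2 and 4, and 53.05, 38.8 and 41.4 in PGR_M 1 to 3. In females no library of one vector overlapped the other, although PGR_F 1 and Con_F 4 were less than 1 CPM apart. On the log2 scale the fold change was 0.37 (SE 0.14, adjusted p = 0.373) in females, 0.21 (SE 0.15, adjusted p = 0.788) in males and 0.29 (SE 0.10, adjusted p = 0.216) averaged.

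Slc25a20, the carnitine-acylcarnitine translocase of the inner membrane, had 24.9, 38.1, 34.3 and 42.1 CPM in Con_F 1 to 4, 39.96, 45.4 and 60.7 in Con_M 1 to 3, 35.2, 37.4 and 53.9 in PGR_F 1, 2 and 4, and 57.02, 41.5 and 43.7 in PGR_M 1 to 3. Con_M 3 was the highest of all 13 libraries, and the groups overlapped in both sexes. PGR over control gave a log2 fold change of 0.28 (SE 0.21) in females and -0.04 (SE 0.22) in males, with a difference of 0.31 (SE 0.31, adjusted p = 0.9999). Crat, the carnitine acetyltransferase, had a log2 fold change of 0.18 (SE 0.14) in females and 0.03 (SE 0.15) in males.

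Malonyl-CoA blocks the shuttle, Acacb makes it and Mlycd degrades it. Mlycd had 47.4, 56.7, 64.8 and 69.4 CPM in Con_F 1 to 4, 56.7, 70.1 and 89.8 in Con_M 1 to 3, 62.8, 66.1 and 106 in PGR_F 1, 2 and 4, and 97.1, 74.4 and 76.3 in PGR_M 1 to 3. PGR_F 4 was the highest library and Con_F 1 the lowest. The estimated log2 fold change was 0.39 (SE 0.21) in females and 0.20 (SE 0.22) in males. Acacb had 1047, 833, 936 and 904 CPM in Con_F 1 to 4, 901, 866 and 961 in Con_M 1 to 3, 847, 846 and 1152 in PGR_F 1, 2 and 4, and 1149, 805 and 913 in PGR_M 1 to 3. Con_F 1, the lowest library for most members, was the third highest here. The log2 fold change was 0.03 (SE 0.13) in females and 0.07 (SE 0.14) in males. Mlycd thus had the larger log2 fold change of the pair in both sexes, but the difference between the genes was not tested, and neither passed the test.

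Beta-oxidation held 15 genes, of which 15 lay above 0 in females (median 0.37) and 14 in males (0.19), Etfa being the exception. The acyl-CoA dehydrogenases take the first step, each for a range of chain lengths. Acadl, the long-chain enzyme, had 111, 148, 124 and 149 CPM in Con_F 1 to 4, 153, 156 and 183 in Con_M 1 to 3, 163, 153 and 199 in PGR_F 1, 2 and 4, and 179.7, 152 and 188 in PGR_M 1 to 3. The PGR_F libraries all lay above the Con_F libraries, and the PGR_M and Con_M libraries overlapped. edgeR put the log2 fold change at 0.37 (SE 0.12, adjusted p = 0.33) in females, the smallest p of any member there, and 0.08 (SE 0.13) in males, with a difference of 0.29 (SE 0.18, adjusted p = 0.9999).

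Acadm, the medium-chain enzyme, had 142, 175, 191 and 237 CPM in Con_F 1 to 4, 216, 208 and 259 in Con_M 1 to 3, 219, 227 and 276 in PGR_F 1, 2 and 4, and 285, 221 and 240.4 in PGR_M 1 to 3. Its highest libraries were PGR_M 1, PGR_F 4 and Con_M 3. On the log2 scale the fold change was 0.37 (SE 0.15) in females and 0.13 (SE 0.16) in males. Acadvl, the very long-chain enzyme, had 0.03 (SE 0.16) and 0.17 (SE 0.17) in females and males, and Acads, the short-chain enzyme, 0.05 (SE 0.15) and 0.07 (SE 0.16). Differences between the 4 dehydrogenases were not tested.

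Hadha and Hadhb encode the subunits of the mitochondrial trifunctional protein, which carries out the later steps on long chains. They are read in opposite directions from starts that lie 85 bases apart on chromosome 5 (GRCm38.p6). The stretch between the starts, chr5:30155163-30155247 on the plus strand, toward Hadhb, is shown because both subunits start at its edges.
Hadha and Hadhb intervening stretch: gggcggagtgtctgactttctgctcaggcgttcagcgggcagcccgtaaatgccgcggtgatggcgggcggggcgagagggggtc
Hadha had 159, 226, 200.5 and 273 CPM in Con_F 1 to 4, 249, 256 and 324 in Con_M 1 to 3, 249.7, 267 and 349 in PGR_F 1, 2 and 4, and 351, 281 and 329 in PGR_M 1 to 3. Hadhb had 153, 263, 234 and 287 CPM in Con_F 1 to 4, 256, 304 and 383 in Con_M 1 to 3, 324, 259.7 and 395 in PGR_F 1, 2 and 4, and 365, 327 and 388 in PGR_M 1 to 3. In both genes Con_F 1 was the lowest library, and PGR_F 4, PGR_M 1, PGR_M 3 and Con_M 3 were the 4 highest. The log2 fold change in females was 0.43 (SE 0.17) for Hadha and 0.48 (SE 0.20) for Hadhb. In males it was 0.21 (SE 0.18) and 0.20 (SE 0.22), so the subunits differed from each other by less than 1 SE in each sex.

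Ehhadh, the bifunctional enzyme of the peroxisomal pathway and a known PPAR target, had 14.2, 20.7, 21.8 and 27.7 CPM in Con_F 1 to 4, 24.7, 25.04 and 32.7 in Con_M 1 to 3, 26.9, 25.8 and 39.1 in PGR_F 1, 2 and 4, and 44.8, 34.5 and 36.8 in PGR_M 1 to 3. In males the groups did not overlap, and in females Con_F 4 lay above PGR_F 1 and 2. PGR over control gave a log2 fold change of 0.54 (SE 0.21, adjusted p = 0.395) in females, 0.50 (SE 0.22, adjusted p = 0.655) in males and 0.52 (SE 0.15, adjusted p = 0.171) averaged. It had the largest averaged value of the 15.

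Acaa2, the last enzyme of the spiral, had 55.9, 91.7, 99.3 and 125 CPM in Con_F 1 to 4, 107, 139.6 and 205 in Con_M 1 to 3, 114, 125 and 183 in PGR_F 1, 2 and 4, and 198, 153 and 166 in PGR_M 1 to 3. The estimated log2 fold change was 0.60 (SE 0.28) in females and 0.19 (SE 0.30) in males, and Con_M 3 was its highest library. Decr1, which prepares unsaturated fatty acids, had 50.6, 83.6, 78.6 and 86.3 CPM in Con_F 1 to 4, 84.3, 81.4 and 109 in Con_M 1 to 3, 93.98, 90.7 and 136 in PGR_F 1, 2 and 4, and 133, 91.7 and 100.2 in PGR_M 1 to 3. All 3 PGR_F libraries lay above the Con_F libraries, and the log2 fold change was 0.52 (SE 0.21) in females and 0.24 (SE 0.22) in males. Eci1 and Eci2, isomerases for unsaturated chains, had 0.23 (SE 0.14) and 0.32 (SE 0.13) in females and 0.22 (SE 0.15) and 0.20 (SE 0.14) in males. Hadh, the dehydrogenase of shorter chains, had 0.32 (SE 0.21) and 0.15 (SE 0.22), and Echs1 0.12 (SE 0.08) and 0.06 (SE 0.08).

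Etfdh and Etfa pass the electrons on to the respiratory chain. Etfdh had 57.9, 84.02, 76.7 and 120.4 CPM in Con_F 1 to 4, 92.3, 102 and 146 in Con_M 1 to 3, 99.1, 105 and 142 in PGR_F 1, 2 and 4, and 147, 121 and 143 in PGR_M 1 to 3. Con_F 1 was again the lowest library, and PGR_M 1 the highest. The log2 fold change was 0.45 (SE 0.23) in females and 0.28 (SE 0.25) in males. Etfa was flatter, at 0.16 (SE 0.11) and -0.04 (SE 0.12). Their partner Etfb had 5 counts in all and was not tested. As with Cpt1b, this does not show that its RNA was absent.

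The last of the mitochondrial genes are Ucp3, an uncoupling protein linked to fatty acid handling, and Pdk4. Ucp3 had 47.1, 65.4, 63.6 and 112 CPM in Con_F 1 to 4, 78.7, 69.9 and 114 in Con_M 1 to 3, 82.1, 94.01 and 188 in PGR_F 1, 2 and 4, and 211, 102 and 125 in PGR_M 1 to 3. PGR_F 4 and PGR_M 1 stood apart from the other 11 libraries. edgeR put the log2 fold change at 0.76 (SE 0.39) in females, 0.74 (SE 0.42, adjusted p = 0.74) in males and 0.75 (SE 0.29) averaged, and without PGR_M 1 the male value was 0.38. Pdk4 had 23.2, 105, 54.3 and 205 CPM in Con_F 1 to 4, 59.6, 187 and 282 in Con_M 1 to 3, 193, 141 and 510.5 in PGR_F 1, 2 and 4, and 464, 381 and 598 in PGR_M 1 to 3. The male groups did not overlap, and the female groups did, with PGR_F 1 and 2 below Con_F 4. On the log2 scale the fold change was 1.54 (SE 0.77, adjusted p = 0.501) in females, 1.45 (SE 0.84) in males and 1.496 (SE 0.57, adjusted p = 0.28) averaged. Without PGR_F 4 the female value was 0.79.

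At the lipid droplet, Pnpla2 (adipose triglyceride lipase) frees stored fatty acids, and Plin5, a coat protein of droplets in oxidative tissue, restrains it. Pnpla2 had 22.2, 19.9, 17.99 and 25.7 CPM in Con_F 1 to 4, 20.7, 19.2 and 26.8 in Con_M 1 to 3, 23.7, 27.4 and 40.5 in PGR_F 1, 2 and 4, and 34.03, 28.6 and 33.2 in PGR_M 1 to 3. In males all PGR libraries lay above all controls, and in females PGR_F 1 lay below Con_F 4. PGR over control gave a log2 fold change of 0.51 (SE 0.18, adjusted p = 0.342) in females, 0.53 (SE 0.19, adjusted p = 0.611) in males and 0.52 (SE 0.13, adjusted p = 0.119) averaged, the smallest p of any member in the average. The fold in the average was 1.43. Plin5 had 25.9, 27.7, 32.4 and 31.4 CPM in Con_F 1 to 4, 23.7, 32.5 and 37.1 in Con_M 1 to 3, 22.3, 25.7 and 37.1 in PGR_F 1, 2 and 4, and 37.6, 27.3 and 31.8 in PGR_M 1 to 3. No group stood apart. The estimated log2 fold change was -0.04 (SE 0.18) in females, 0.06 (SE 0.20) in males and 0.01 (SE 0.13) averaged, with a difference between the sexes of -0.10 (SE 0.27, adjusted p = 0.9999).

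**Figure D4:**
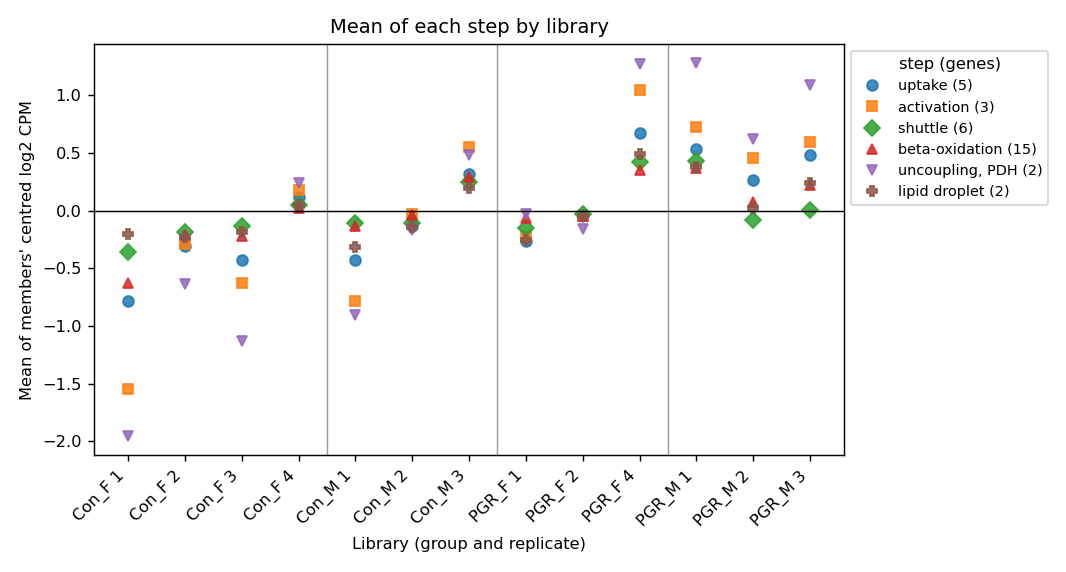
Mean over the genes of each step of log2 CPM (prior count 2) minus the gene's mean, for each of the 13 libraries; numbers in the legend count genes. The uncoupling and pyruvate dehydrogenase pair spans from -1.96 in Con_F 1 to 1.28 in PGR_M 1, and beta-oxidation from -0.62 to 0.37 in the same libraries.

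Set side by side, each step was lowest in Con_F 1 or Con_M 1 and highest in PGR_F 4 or PGR_M 1, and the steps differed in amplitude. Between Con_F 1 and PGR_M 1 the mean of uncoupling and pyruvate dehydrogenase control went from -1.96 to 1.28 on the centred log2 scale. For uptake it went from -0.78 to 0.53, for beta-oxidation from -0.62 to 0.37 and for the shuttle from -0.36 to 0.43. Activation with thioester hydrolysis spanned -1.54 in Con_F 1 to 1.04 in PGR_F 4. For the lipid droplet the span was -0.31 in Con_M 1 to 0.49 in PGR_F 4. Each mean weights its genes equally, so a wide-ranging gene can set the amplitude of a small step. Acot1 and Acot2 ranged 28.5-fold and 4.55-fold, and the synthetase Acsl1 1.95-fold. Angptl4 ranged 20.99-fold, and the other uptake genes from 1.60-fold (Slc27a1) to 2.71-fold (Fabp3). Pdk4 ranged 25.8-fold and Ucp3 4.48-fold. PGR_M 2 and 3 were above 0 for uptake (0.27 and 0.48) but near 0 for the shuttle (-0.08 and 0.01), so those males differed from PGR_M 1 and PGR_F 4 in which steps were high.

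The second question was whether females and males responded differently to the vector. By edgeR 0 of 33 members and 0 of 16125 genes passed (0% called, with 525 genes at an unadjusted p under 0.05). DESeq2 called 1 gene and limma-voom 0, neither a member. At an unadjusted p under 0.05 there were 0 members, against 3.26% of all genes in either direction. The female effect was the larger in 25 of 33 members, with a median difference of 0.12. Over all genes 51% lay above 0, with a median of 0.005. The members' median turned below 0 with 1 library left out, to -0.12 without PGR_F 4 (9 positive), -0.06 without Con_M 3 and -0.0061 without PGR_M 2. The SE of the difference was 0.30 to 0.42 for enzymes such as Hadhb (0.28 (SE 0.30)) and Acaa2 (0.40 (SE 0.42)), and 1.12 for Pdk4 (0.10 (SE 1.12)), larger than the SE of the effect in either sex.

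The third comparison was that of females with males under each vector. Under the control vector 28 of 33 members lay below 0, lower in females, with a median of -0.28, while the median over all genes was -0.00014 and 50% of them lay above 0. No member passed, among 37 of 16125 genes called (0.229%). At an unadjusted p under 0.05 there were 5 members lower in females, Eci2, Acadl, Acaa2, Slc25a20 and Hadha, against 5.07% of all genes. Every Con_F library lay below every Con_M library for Acadl, and for 4.94% of all genes. Markers of other cell types moved with this comparison: 17 of 17 endothelial markers (median log2 fold change 0.68), 13 of 13 fibroblast markers (0.85), 9 of 11 macrophage markers (0.49) and 8 of 10 smooth muscle and pericyte markers (0.20) were above 0, higher in Con_F, with 0 past the adjusted threshold. The 16 cardiomyocyte markers had a median of 0.0067. The part of these cells in the sex difference was not tested.

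By step the smallest p values in control hearts belonged to Eci2 at -0.34 (SE 0.13, adjusted p = 0.315), Slc25a20 at -0.48 (SE 0.21, adjusted p = 0.379) and, among uptake genes, Slc27a1, higher in females at 0.29 (SE 0.17, adjusted p = 0.5). Acsl1 was at -0.21 (SE 0.16, adjusted p = 0.638), Pdk4 at -0.87 (SE 0.76, adjusted p = 0.688) and Plin5 at -0.08 (SE 0.18, adjusted p = 0.903). Beyond these, Acaa2 was at -0.69 (SE 0.28), Hadha at -0.36 (SE 0.17) and Acadl at -0.30 (SE 0.12). The 5 members above 0, higher in females, were Slc27a1, Lpl (0.16), Acadvl (0.06), Acacb (0.03) and Cpt1a (0.02). The sex difference rested on Con_F 1 and Con_M 3. Without Con_F 1 the median was -0.14 and without Con_M 3 it was -0.10, each with 0 members lower at an unadjusted p under 0.05. That count was 1 without Con_F 3, 3 without Con_F 2 and 13 without Con_F 4. With Con_F 1 and Con_M 3 both left out the median was 0.0029, with 16 of 33 below 0.

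Under the PGR vector 28 of 33 members again lay below 0, with a median of -0.14, and 53.1% of all genes lay above 0. Of the 23 genes called (0.143%) 0 were members. At an unadjusted p under 0.05 there were 0 members lower in females, against 3.14% of all genes, and 0 members had all PGR_F libraries below all PGR_M libraries, against 6.41%. The smallest p values by step were those of Eci2 at -0.22 (SE 0.14, adjusted p = 0.838), Cd36 at -0.23 (SE 0.19, adjusted p = 0.885), Acsl1 at -0.17 (SE 0.18, adjusted p = 0.917), Plin5 at -0.18 (SE 0.20, adjusted p = 0.922), Pdk4 at -0.77 (SE 0.82, adjusted p = 0.922) and Slc25a20 at -0.17 (SE 0.22, adjusted p = 0.941). Without PGR_F 4 all 33 members lay below 0, with a median of -0.33 and 5 members lower at an unadjusted p under 0.05. Without PGR_M 1 the median was -0.04, and 1 member was lower at that level, as without PGR_M 2. Under this vector 13 of 17 endothelial markers (median 0.25), 12 of 13 fibroblast markers (0.59) and 9 of 11 macrophage markers (0.04) were above 0, higher in PGR_F. Of the smooth muscle and pericyte markers 5 of 10 were above 0 (median 0.06), and of the cardiomyocyte markers 8 of 16 (-2.7e-05). The 4 comparisons of vector and of sex share their libraries pairwise, so a library that stands apart enters more than 1 of them.

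**Figure D5:**
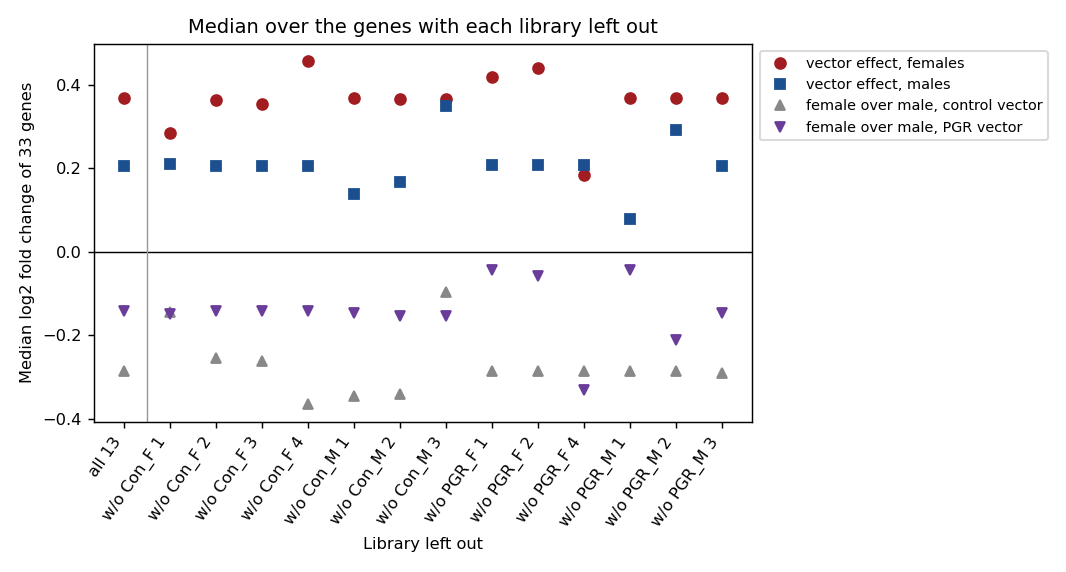
Median log2 fold change over the 33 genes in 4 comparisons, with all 13 libraries (left) and with each library left out in turn. The female vector effect goes from 0.37 to 0.18 without PGR_F 4, the male one from 0.21 to 0.08 without PGR_M 1, and the sex difference under the control vector from -0.28 to -0.10 without Con_M 3.

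Other genes of the pathway passed the adjusted threshold in 0 cases in the averaged vector comparison. Their lists were written from general knowledge of the pathway, but with earlier results of these data known. Of 17 tested genes of uptake and activation, 10 were above 0 (median 0.05), with Vldlr, a lipoprotein receptor, at 0.26 (SE 0.09, adjusted p = 0.204) and Acsl4 at 0.17 (SE 0.07, adjusted p = 0.279). Of 7 of carnitine and acetyl transport, 4 were above 0 (median 0.09), with the carnitine transporter Slc22a5 at 0.29 (SE 0.11, adjusted p = 0.252) and Crot at 0.16 (SE 0.07). Of 12 further mitochondrial oxidation genes 10 were above 0, with a median of 0.06. The 2 below were those with the smallest p, Acad10 at -0.14 (SE 0.05) and Ivd, of leucine breakdown, at -0.14 (SE 0.06). Peroxisomal oxidation had 10 of 15 above 0 (median 0.02), with Pecr at 0.19 (SE 0.07) and Hsd17b4 at 0.20 (SE 0.09). These medians lay nearer to 0 than that of the 33 members, whose list was likewise chosen with earlier results known.

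Droplet and triglyceride genes outside the list went both ways, with 11 of 20 above 0 and a median of 0.01. Lipe, hormone-sensitive lipase, which acts after Pnpla2, was at 0.55 (SE 0.13, adjusted p = 0.112). Dgat1, which makes triglyceride, was at -0.25 (SE 0.07, adjusted p = 0.139). Bdh1, a ketone body dehydrogenase, was at -0.64 (SE 0.16, adjusted p = 0.127).

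Of 22 tested regulators of these genes, 14 were below 0 in the averaged vector comparison, with a median of -0.07. The nuclear receptors Ppard and Esrra were at -0.28 (SE 0.08, adjusted p = 0.146) and -0.23 (SE 0.07, adjusted p = 0.18). Ppard had 176, 128, 136 and 120.1 CPM in Con_F 1 to 4, 129, 131 and 117 in Con_M 1 to 3, 106, 109 and 118 in PGR_F 1, 2 and 4, and 112, 106 and 107 in PGR_M 1 to 3. Con_F 1, lowest for most members, was the highest library for Ppard.

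Markers of other cell types were set beside the members' order. The 17 endothelial markers, 16 of them with a mean count of at least 10, summed to 97.4 to 122 CPM in Con_F, 49.8 to 94.1 in Con_M, 68.2 to 128 in PGR_F and 55.3 to 104 in PGR_M. PGR_M 1, highest for 12 members, had 55.3, Con_F 1, lowest for 21, had 97.4, and PGR_F 4, highest for 11, had 103. The 13 fibroblast markers summed to 114 to 172, 44.4 to 100.3, 83.7 to 191 and 53.5 to 138 CPM in the same groups. Of 11 adipocyte markers only 2 had a mean count of at least 10, Lipe and Pparg, and the defining Adipoq was at 0 to 0.103 CPM. The adipocyte sum was 61.4 to 94.1 CPM in Con_F, 81.9 to 87.7 in Con_M, 78.2 to 96.5 in PGR_F and 94.6 to 113 in PGR_M. Over the 13 libraries the smooth muscle and pericyte markers summed to between 308 and 367 CPM and the macrophage markers to between 15.6 and 28.9. In the vector comparisons 17 of 17 endothelial markers lay below 0 in females (median -0.19) and 16 of 17 above 0 in males (0.25). Cardiomyocyte markers lay below 0 for 13 of 16 in females (-0.14) and 11 of 16 in males (-0.10). Above 0 in females and in males were 6 and 10 of 13 fibroblast and 6 and 9 of 11 macrophage markers. For smooth muscle and pericyte markers it was 3 and 7 of 10. None of these passed the adjusted threshold. The part of these cell types in the values was not tested.

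RefSeq promoter windows (GRCm38.p6, 250 bases before to 50 after the start) were found for 28 of the 33 members, in 32 windows. They were searched on both strands for a direct repeat of AGGNCA with 1 base between, the kind of element bound by PPAR with RXR, for TCAAGGTCA, the element of the estrogen-related receptors, and for an inverted repeat of GNACA with 3 bases between, the kind bound by progesterone and glucocorticoid receptors. The first and second patterns share letters and can overlap. None of the 32 windows held any of the 3 patterns, and 0.381%, 0.423% and 0.475% of all 32851 windows of that length did. This says only that these letters are not in these windows.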

How the data were processed

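RNA was counted in 13 libraries of Pcm1-sorted ventricular nuclei in 4 groups of vector and sex. The authors deposited raw counts per gene, with a start, an end and a length for each gene per the file headers. In all 55536 genes the length was end minus start plus 1. GRCm38, mm10, featureCounts 1.5.0 and STAR 2.5.3a are listed, with no roles, in the submitters' processing notes. A smaller deposited table of 15645 genes served as an alternative.

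Genes were kept by filterByExpr in edgeR 4.0.16 (R 4.3.3), which left 16125, and scaled with TMM. A robust quasi-likelihood model of 4 group means was fitted to all libraries with 6 contrasts and Benjamini-Hochberg adjustment over all genes tested (threshold 0.05). SE is the log2 fold change over the square root of F. The fitting script was tested on simulated data. Alternatives were DESeq2 1.42.0, limma-voom (limma 3.58.1), DESeq2 size factors in edgeR, no filter, a replicate block, fits of 2 groups and leaving out each library. Leaving out pairs of libraries was chosen after seeing the data. The rule for named genes took all 33, with full statistics for the smallest p of each step in each comparison. The members, steps and other gene lists were chosen with earlier results of these data known. One result for a gene of the wider pathway is not reported here.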

Additional observations from a re-analysis of the deposited data

Results flagged for a closer look

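In control females, 1 library stood apart for 1 gene. Crat, the carnitine acetyltransferase, had 77.8 CPM in Con_F 4 and between 62.0 and 63.1 in the other 3 libraries of that group. The gap to the nearest library was 0.931 of the group's range, above Dixon's 95% critical value for 4 samples. Con_F was the one group of 4 libraries, so the 33 members were each examined there once, and chance alone flags about 1 in 20 such groups. Con_F 4 is also the library with Y-linked counts at 1.01% of the male mean.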

How the results depend on the processing

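Under every alternative run, the number of members called was 0 in 5 of the 6 comparisons. In the averaged vector comparison it was 1 of 146 genes called without a filter (Lpl, 0.37, adjusted p = 0.0262). With DESeq2 it was 3 of 334 (Ehhadh 0.52, Lpl 0.37 and Pnpla2 0.52). It was from 0 to 2 with 1 library left out, the 2 being Fabp3 and Pnpla2, of 338 genes called without Con_F 4. The members' medians moved by less than the SD of the members' mean between libraries of a group (0.31 on the log2 scale), with 1 exception. The female minus male vector effect was -0.20 without Con_F 1 and Con_M 3 and -0.23 without Con_F 1 and PGR_F 4. A move within 0.31 can take most of these medians to 0, so it does not show that they were stable. The control-vector sex difference went from -0.28 to 0.0029 without Con_F 1 and Con_M 3. These pairs, and that of PGR_F 4 with PGR_M 1, were chosen after seeing the data.

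Counts over all genes depended more on the processing, and the cause was not tested. In females the count was 0, with 25 without a filter, 81 with DESeq2 and 0 to 20 with 1 library left out (20 without Con_F 4). In males it was 0, with 12, 29 and 0 to 3 (without PGR_M 2), and 1 both with only the 2 groups compared and without PGR_F 4 and PGR_M 1. In the average it was 1, with 146, 334 and 1 to 338 (338 without Con_F 4), 13 without PGR_F 4 and PGR_M 1, 4 without Con_F 1 and Con_M 3, and 8 without Con_F 1 and PGR_F 4. For the difference between the sexes it was 1 without a filter and 1 with DESeq2. Under the control vector the sex difference went from 37 to 131, 224 and 14 to 99 (14 without Con_F 2, 99 without Con_M 1), 17 with only 2 groups, 17 without Con_F 1 and Con_M 3 and 18 without Con_F 1 and PGR_F 4. Under the PGR vector it went from 23 to 51, 80 and 10 to 44 (10 without PGR_F 1, 44 without Con_F 4), 56 with only 2 groups, 15 without PGR_F 4 and PGR_M 1 and 14 without Con_F 1 and PGR_F 4.

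Signs of members turned under at least 1 alternative for 9 of 33 in the female vector effect, 8 in the male one, 8 in the average, 28 in the difference between the sexes (kept by Lpl, Slc27a1, Acadl, Acadm and Etfa), 15 in the control-vector sex difference and 16 in that under the PGR vector. Among the members with full statistics, with 1 library left out, the difference between the sexes ranged from -0.24 to 1.19 for Acot1, -0.35 to 0.059 for Plin5 and -0.66 to 0.77 for Pdk4, and the control-vector sex difference of Plin5 from -0.25 to 0.065. Without PGR_F 4 and PGR_M 1 the difference between the sexes was -0.15 for Acot1 and -0.69 for Pdk4. Without Con_F 1 and Con_M 3 it was -0.35 for Acot1, -0.014 for Slc25a20 and -0.76 for Pdk4, and the control-vector sex difference was 0.033 for Acsl1 and 0.12 for Plin5. Without Con_F 1 and PGR_F 4 it was -0.62 for Acot1, -0.038 for Slc25a20 and -0.98 for Pdk4.

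Replicate numbers are shared between groups, and whether same-numbered libraries shared a batch was not tested. Correlations of same-numbered deviations from group means were between -0.25 and 0.25. A replicate block in edgeR gave 35 genes for the sex difference under the PGR vector, against 23, and moved no other count over all genes by over 1.5 times. It moved counts of members at an unadjusted p under 0.05 from 9 to 20 in females, 3 to 9 in males, 17 to 23 in the average, 5 to 17 for the control-vector sex difference and 0 to 6 for that under the PGR vector. limma-voom and DESeq2 gave 17 and 15 in females, and limma-voom gave 8 in males. The share of all genes at that level was not counted under these alternatives. Whether these changes are particular to the members is therefore not known. Between the sexes under one vector, the same-numbered library was the best match for Con_F 1, Con_F 3, PGR_F 1 and PGR_F 2, but not for Con_F 2. Between the vectors it was the best match for Con_F 4 only.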
